A study of Marmota monax with 20 samples.

Results

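The 200 genes described here are those whose RNA level varied least between 7 tissues of the Eastern woodchuck (Marmota monax). They were chosen from the 30973 genes of the Monax4B annotation by their measured values. Each library was scaled by a size factor, the median over genes of its count relative to the geometric mean of all libraries, and 5535 genes had a normalised read count of at least 1000 in all 20 libraries, after Monax4B042242 was set aside by the rule (it would have been number 4874 in the order of stability). For each of these genes the mean log2 normalised count of each tissue was taken, and the 200 genes with the smallest standard deviation (SD) of the 7 tissue values were kept. They are 3.61% of the genes above that floor and 0.646% of all genes.

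RNA-seq libraries of polyA RNA came from 6 adult, untreated woodchucks, negative for woodchuck hepatitis virus, 3 females, labelled F6849, F6852 and F9150, and 3 males, labelled M4046, M4075 and M4091. Liver was sequenced from all 6, kidney and spleen from all but F6852, lung and heart from F6849 alone, and pancreas and thymus from F9150 alone. The animals are separate individuals, so that the spread within liver, kidney and spleen is a spread between animals. Each animal gave 1 library of a tissue, so this spread also holds differences of sex, lane and library preparation. The other tissues have 1 library each and no replicate. The libraries held 59487004 to 140252555 counts and were run in 8 lanes. The table gives identifiers without gene names, positions or lengths, and the identifiers were absent from the RefSeq gene table of this species used here (assembly Marmota_monax_Labrador192_F-V1.1), so that genes are given by identifier, no function is assigned to any of them, and the labelled tissues could not be checked against marker genes.

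Some genes are needed by almost every cell, for example those for protein synthesis and degradation, RNA splicing, membrane traffic and energy metabolism, and are called housekeeping genes. Their transcripts are found in all tissues and some serve as reference genes, against which other transcripts are measured. A stable level in bulk RNA is always relative to the other transcripts of a library, and in a tissue of many cell types fewer cells of a type and less RNA per cell cannot be told apart. Whether the genes below belong to this class cannot be read from the identifiers.

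The SD of the 7 tissue values, which chose the genes and is given as a description, ranged from 0.074 to 0.20 on the log2 scale in the 200 genes, with a median of 0.17. In the 5335 other genes above the floor the median was 0.53. The ratio of the highest to the lowest tissue had a median of 1.39-fold in the 200 genes and was at most 1.56-fold, against a median of 2.82-fold in the others. In 185 of the 200 genes this ratio was under 1.5. Over all 20 libraries, 181 of the 200 genes (90.5%) stayed within 2-fold from the lowest to the highest library, as did 7.95% of the others.

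The most stable gene was Monax4B012723, with an SD of 0.074. Its normalised read count in liver had a lowest value of 1896, a median of 2099 and a highest value of 2279. In kidney it was 2017, 2290, 1831, 1981 and 1655 in F6849, F9150, M4046, M4075 and M4091, and in spleen 1906, 1853, 1555, 1846 and 2137 in the same animals. The single libraries of lung, heart, pancreas and thymus had 1813, 2000, 2019 and 1995. The values of liver, kidney and spleen overlapped, the single libraries lay within the range of kidney, and the highest tissue mean, that of liver, was 1.16-fold that of lung, the lowest. The second was Monax4B014413, with an SD of 0.087. Its livers had 7091 ± 587 (SD, n = 6) normalised counts, its kidneys 7676 ± 439 (SD, n = 5) and its spleens 8113 ± 943 (SD, n = 5), and these ranges overlapped as well.

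The limit fell in a dense part of the order. The last genes inside were Monax4B040333 and Monax4B019533, with SDs of 0.1981 and 0.1982, and the first outside were Monax4B045494 and Monax4B011361, with 0.1988 and 0.1992. No gap in the values separates the 200 genes from those that follow.

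The tissues did not contribute equally to what variation was left. Spleen was the highest of the 7 tissues in 50 of the 200 genes (25%, and 16.9% of the other genes above the floor), liver in 36 (18%, and 23.2%) and lung in 9 (4.5%, and 3.67%). Lung was the lowest in 52 genes (26%, and 11.4% of the others), heart in 36 (18%, and 18.2%), kidney in 29 (14.5%, and 7.14%) and spleen in 18 (9%, and 23.4%). The median deviation from the mean of the 7 tissues was 0.08 (log2) in spleen, 0.04 in liver, -0.04 in kidney and -0.10 in lung, and lay between -0.01 and 0.02 in heart, pancreas and thymus. In the other genes above the floor it was -0.11 in spleen, 0.12 in liver, -0.09 in kidney and -0.17 in lung. The directions in liver, kidney and lung were thus shared with the other genes, and that in spleen was not.

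**Figure D1:**
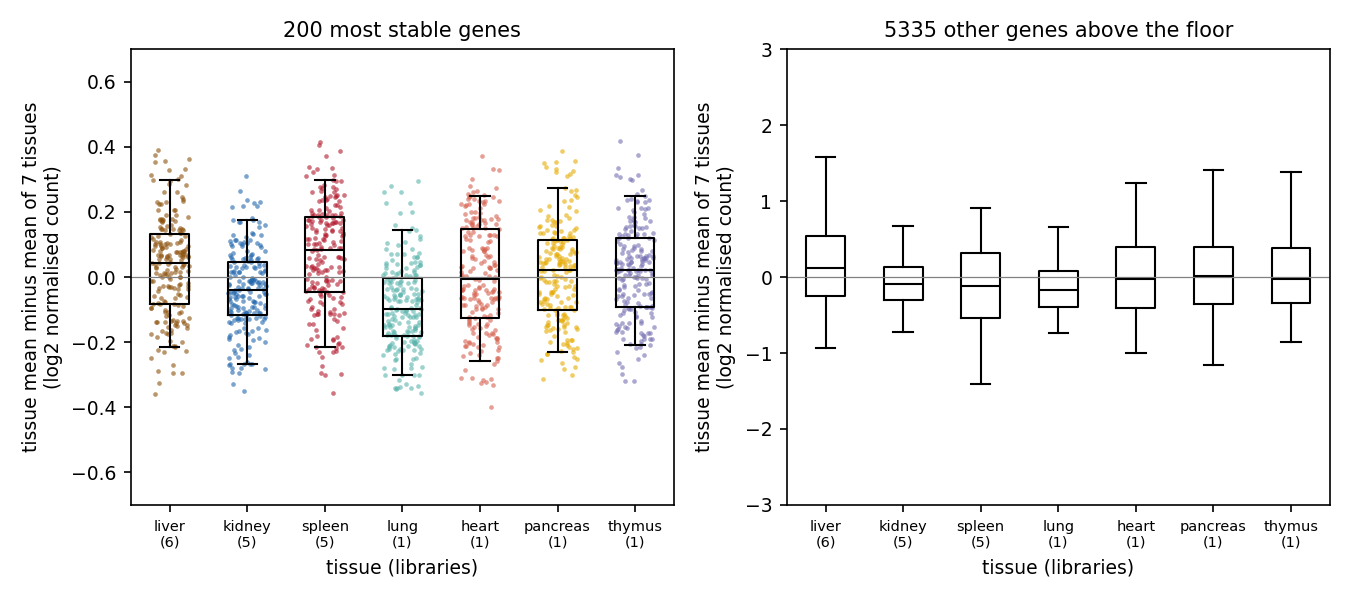
Deviation of each tissue mean from the mean of the 7 tissues, in log2 normalised count, for the 200 most stable genes (left, points are genes) and the 5335 other genes above the floor (right, with a wider axis). Boxes hold the middle quartiles with the median and whiskers reach the 5th and 95th percentiles. In the 200 genes the medians run from -0.10 in lung to 0.08 in spleen, and in the other genes from -0.17 in lung to 0.12 in liver.

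The largest single deviations among the 200 genes are given to show how far a member could stray. Monax4B014052 was 0.42 above its mean in thymus, at 4677 normalised counts, against 2622 to 3778 in the other 19 libraries. Monax4B019533 was 0.41 above in spleen, at 2256 ± 184 normalised counts (SD, n = 5). Livers had 1744 ± 106 (SD, n = 6) and kidneys 1512 ± 174 (SD, n = 5). All 5 spleens had more than any other library. Monax4B040247 was 0.40 below its mean in heart, at 1180, the lowest of its 20 values. Monax4B044687 was 0.36 below in liver, the tissue with the lowest mean, at 7863 ± 713 normalised counts (SD, n = 6). Kidneys had 9250 ± 883 (SD, n = 5) and spleens 11226 ± 1828 (SD, n = 5), and the highest liver was above the lowest kidney.

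Some of these genes still differed, by small amounts, between replicated tissues in edgeR's quasi-likelihood test (false discovery rate of 0.05, Benjamini-Hochberg adjustment over all genes tested). The rule used these tissue differences, so the counts are a description and nothing is read from them. Between liver and kidney 67 of the 200 passed, 57 higher in liver and 10 lower, where 63.0% of all 20764 genes tested passed. Between liver and spleen 67 passed, 28 higher in liver and 39 lower, where 74.0% of all genes passed. Between kidney and spleen 68 passed, 7 higher in kidney and 61 lower, where 62.5% of all genes passed. With median-ratio (RLE) factors in place of the TMM factors the splits were 40 higher and 14 lower for liver and kidney (62.5% of all genes passed) and 11 higher and 39 lower for kidney and spleen (62.2%). With the sequencing lane as a block, an alternative added after seeing the data, 28, 52 and 36 of the 200 passed in the 3 comparisons, where 48.6%, 69.2% and 48.1% of all genes did. The median absolute log2 fold change of the 200 genes was 0.18, 0.18 and 0.20 in the 3 comparisons, against 0.89, 1.24 and 0.87 over all genes tested. In the other genes above the floor it was 0.53, 0.71 and 0.52.

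Monax4B040333 was highest in liver, with 6248 ± 676 (SD, n = 6) normalised counts. It had 4604, 4705, 4478, 3858 and 4393 in the kidneys of F6849, F9150, M4046, M4075 and M4091 and 4288, 4548, 4275, 3354 and 4070 in their spleens. All 6 livers, at 5296 to 7308, were above every kidney and spleen. Its log2 fold change was 0.56 over kidney (standard error 0.10, edgeR adjusted p = 0.000155) and 0.62 over spleen (standard error 0.10, edgeR adjusted p = 4.35e-05). Monax4B020455 was the furthest in the other direction between liver and kidney, with a log2 fold change of -0.51 (adjusted p = 0.000125, edgeR), and Monax4B018566 between liver and spleen, with -0.53 (adjusted p = 9.58e-05, edgeR). Monax4B041092 was lower in kidney than in spleen by a log2 fold change of -0.65 (adjusted p = 0.000352, edgeR). The largest value in favour of kidney, 0.42 for Monax4B031099, did not pass (adjusted p = 0.0667, edgeR). It passed with the animal as a replicate block (adjusted p = 0.0335, edgeR), with median-ratio factors, with DESeq2, without the liver of F6852 and without the spleen of M4046 (log2 fold change 0.53).

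All of this holds on a scale that corrects for the composition of the libraries. As raw shares the 200 genes were not stable. They held 0.558% ± 0.0147 (SD, n = 6) of the counts of a liver library. In kidney libraries the share was 1.49% ± 0.0666 (SD, n = 5), and spleen libraries had 1.67% ± 0.110 (SD, n = 5). In the single libraries the share was 0.480% in pancreas (95% Wilson interval 0.479 to 0.482), 1.03% in heart (1.03 to 1.03), 1.15% in thymus (1.15 to 1.15) and 1.46% in lung (1.46 to 1.46). The intervals cover counting error only and take each read as 1 observation, so they are too narrow if both mates of a pair were counted. The size factors were 0.443 in pancreas, 0.490 to 0.833 in liver, 0.815 in heart, 0.861 in thymus and 1.05 to 2.02 in kidney, spleen and lung. The genes were chosen for even normalised counts, so their shares follow largely from the size factors and the library sizes. With library sizes alone, each of the 200 genes was below its 7-tissue mean in liver and in pancreas and above it in kidney, spleen and lung, and all 200 passed the test between liver and kidney (85.4% of all genes passed at this setting) and between liver and spleen (86.5%), all lower in liver. Between kidney and spleen 62 passed at this setting (62.1%). The other genes above the floor shifted alike with library sizes alone: their median deviation was -0.79 (log2) in liver, -1.08 in pancreas and 0.50 in spleen, beside -0.87, -1.08 and 0.70 in the 200 genes. Monax4B040333, highest in liver above, then had a log2 fold change of -0.99 against kidney and -0.93 against spleen. A choice made on that scale shared 0 of its 200 genes with the present ones.

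**Figure D2:**
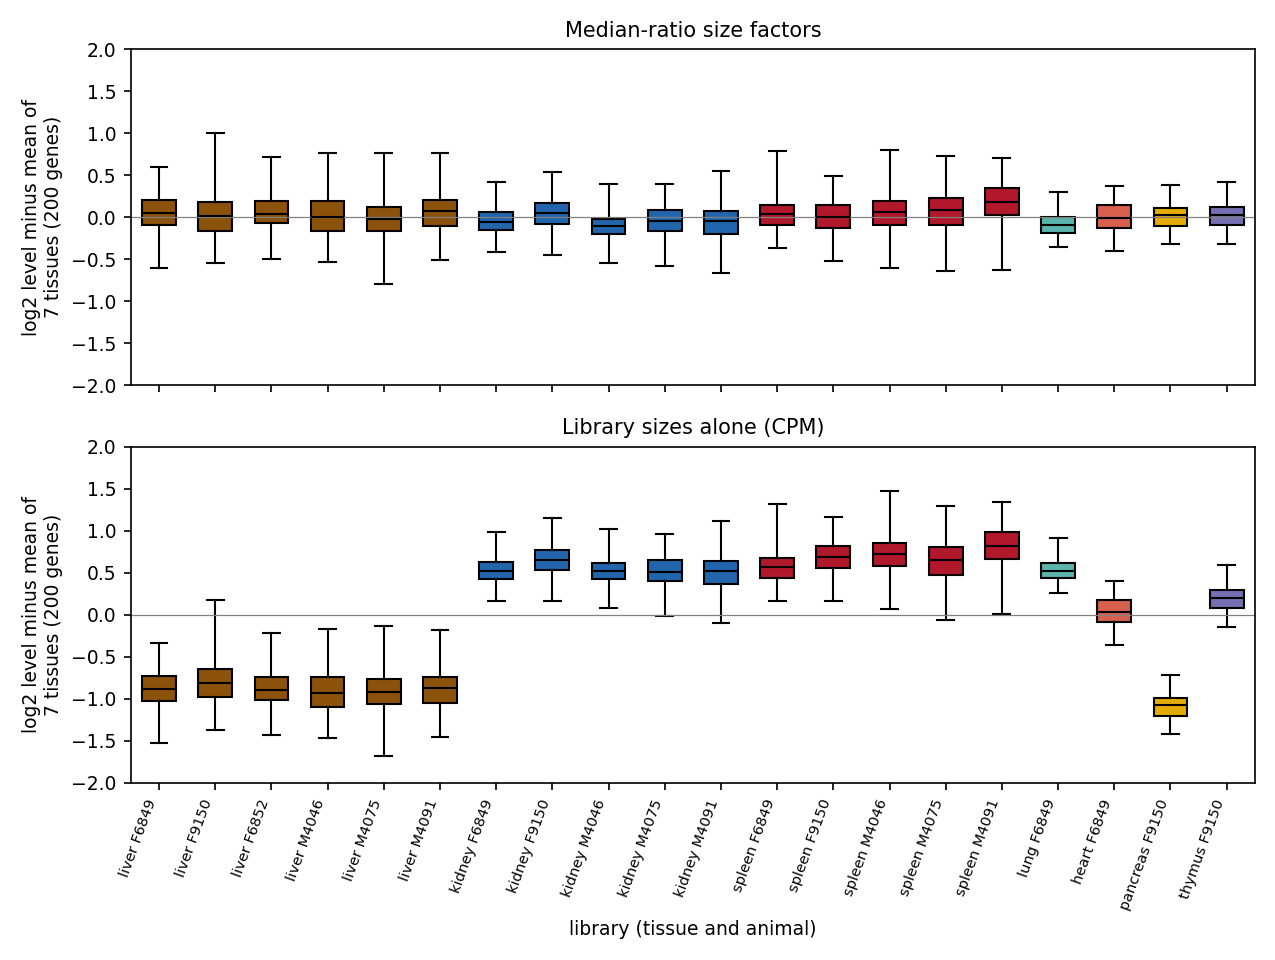
Log2 level of the 200 genes in each of the 20 libraries minus the gene's mean of the 7 tissues, with median-ratio size factors (above) and with library sizes alone (below). Boxes hold the middle quartiles with the median and whiskers reach the extremes; with library sizes alone the tissue medians are -0.87 in liver and -1.08 in pancreas against 0.70 in spleen.

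A choice made on 6 tissues was read in the tissue it had not used, a comparison added after the data had been seen, with the size factors and the floor taken from all libraries. In kidney 98.0% of the 200 genes chosen on the other tissues lay within 1.5-fold of their mean, and in lung 97.5%, against 80.2% and 76.1% of the remaining genes. In spleen 74.5% did, in heart 78.0% and in liver 78.5%, against 57.9%, 60.3% and 60.1% of the remaining genes. For pancreas and thymus the shares were 85.0% and 88.0%, against 61.6% and 64.9%. One gene chosen without pancreas was 2.26 (log2) above its mean there, and 15 of the 200 genes chosen without heart differed by over 2-fold in heart, as did 17.7% of the remaining genes. Of the present 200 genes, the list chosen without spleen held 110, that without liver 113 and that without lung 159.

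**Figure D3:**
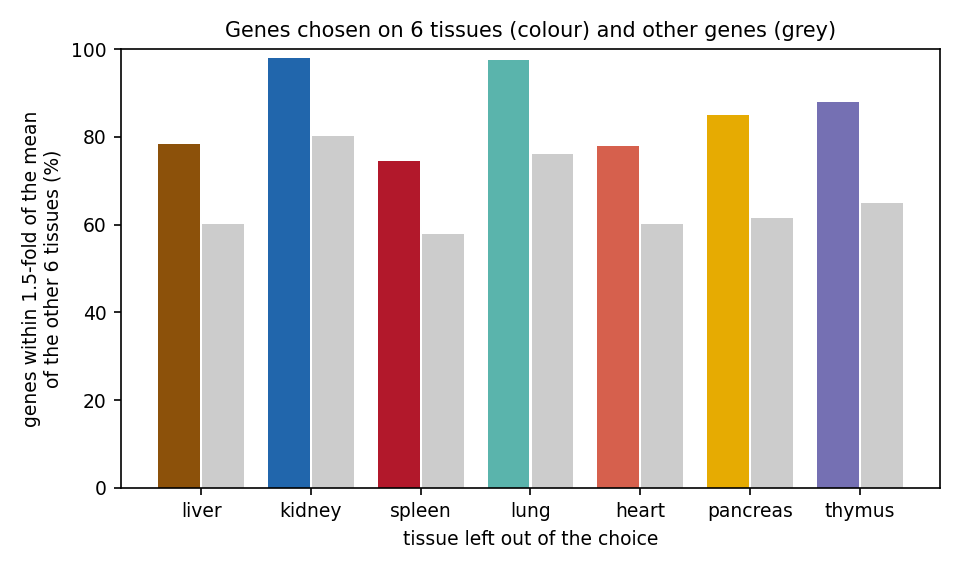
Percentage of genes within 1.5-fold of the mean of the other 6 tissues, in the tissue left out of the choice. Coloured bars are 200 genes chosen on the 6 tissues and grey bars the remaining 5335 genes above the floor; the coloured bar is the taller in each tissue, from 74.5% in spleen to 98.0% in kidney.

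The rule did not rank the spread between animals of the same tissue, although it averaged the same libraries. The median SD between animals was 0.16 in liver (n = 6), 0.13 in kidney (n = 5) and 0.15 in spleen (n = 5) for the 200 genes, against 0.21, 0.16 and 0.20 for the other genes above the floor, all on the log2 scale. The SD that counting error alone would give, with the reads of a pair taken as 1 observation, had a median of 0.038. The SD of the 5 animal means over liver, kidney and spleen had a median of 0.098 in the 200 genes and 0.14 in the others. The comparisons of tissue with animal that follow use the tissue spread by which the genes were chosen, so a smaller part of the tissue than in the other genes follows from the rule, and they are given as a description. In 84 of the 200 genes (42.0%) the 7 tissue values had a smaller SD than the animals of a tissue had on average, as had 2.16% of the other genes. The sum of squared deviations was split over the 15 libraries from animals with liver, kidney and spleen. In the 200 genes the tissue held a median of 40.7% of it and the animal 23.1%, and in the other genes 80.0% and 7.33%. The animal took the larger part in 72 of the 200 genes (36.0%) and in 7.07% of the others. These are raw shares and not variance components. More animals than tissues enter the split, which by itself raises the share of the animal.

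**Figure D4:**
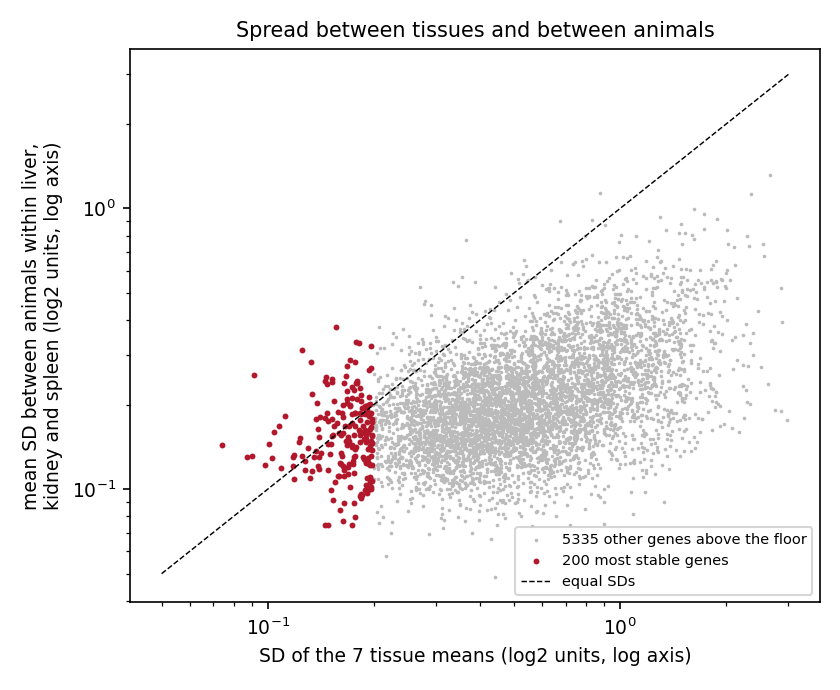
The horizontal axis is the SD of the 7 tissue means and the vertical axis the mean SD between animals within liver, kidney and spleen, both in log2 units on log axes, for the 200 most stable genes (red) and the 5335 other genes above the floor (grey). The dashed line marks equal SDs; 84 of the red points lie above it, with the larger SD between animals, and the sharp right edge of the red points is the limit of the rule.

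The 2 genes that varied least between animals were Monax4B005438 and Monax4B011146, with a mean SD of 0.074 within tissues. Monax4B005438 had normalised counts of 6491, 6438, 6282, 6703 and 6380 in the kidneys of F6849, F9150, M4046, M4075 and M4091. Its liver values ran from 5231 to 6298 (median 5881) and its spleens from 6178 to 7036. The kidneys lay close together, while the heart library, at 5154, was below and the pancreas library, at 7284, above all others. This gene was number 101 in the order over tissues.

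The 2 genes that varied most between animals were Monax4B042552 (mean SD 0.38) and Monax4B042683 (0.33). Monax4B042552 was measured at 6373 in the liver of F9150 and at 2368 to 3687 in the other 5 livers. In spleen it was 4093, 3624, 4364, 2298 and 2496 in F6849, F9150, M4046, M4075 and M4091. The spleens of M4075 and M4091 were the low ones, and F9150 was not high in spleen or kidney. Its tissue means deviated by -0.35 (log2) in kidney and by 0.03 to 0.10 in the other tissues, and it was number 60 in the order of stability.

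Monax4B042683 followed one animal. The male M4075 had 6547 in liver against 3723 to 4916 in the other animals, 4996 in kidney against 2923 to 3437, and 6371 in spleen against 3142 to 4202. M4075 was the highest of all animals in each of the 3 tissues, and its libraries were run in 3 different lanes (8, 1 and 2). In the test between animals, which asks whether an animal's level differs in all 3 tissues alike, this gene had the smallest p of the 200 but did not pass (adjusted p = 0.0811, edgeR's quasi-likelihood test). Of the 200 genes, 0 passed this test, where 0.883% of all 20729 genes tested did. At an unadjusted p under 0.05 there were 15 of the 200 (7.5%), against 14.1% of all genes and 10.9% of the other genes above the floor. The single libraries of lung, heart, pancreas and thymus came from F6849 or F9150. A gene that sets these animals apart in all tissues was thus less likely to be chosen by the rule. DESeq2 called 16 of the 200, Monax4B042683 among them (adjusted p = 3.61e-05), where it called 11.0% of all genes. With the lane as a block, an alternative added after seeing the data, Monax4B042683 was further from passing (adjusted p = 0.248, edgeR).

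**Figure D5:**
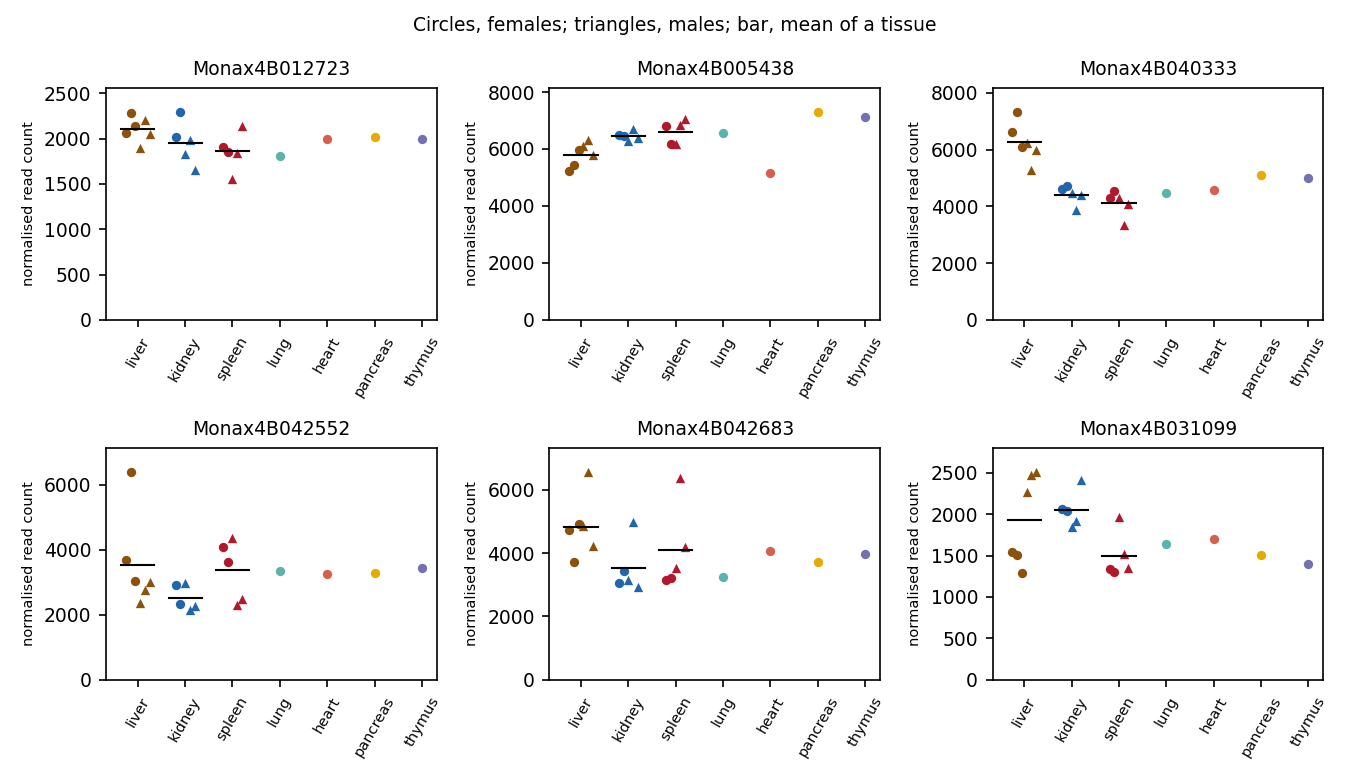
Normalised read count (axis from 0) of 6 of the 200 genes in the 20 libraries, by tissue; circles are females, triangles males, and the bar is the mean of a tissue with replicates. Monax4B012723 is even over tissues. Monax4B005438 varies little between animals of a tissue, with its lowest value in heart and its highest in pancreas. Monax4B040333 is highest in liver, Monax4B042552 stands out in the liver of F9150, and Monax4B042683 in M4075. Monax4B031099 is higher in male than in female livers.

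The rule did not use the sex labels, and a level that is even over tissues could still differ between females and males. Lung, heart, pancreas and thymus came from females alone, however. A gene that differs by sex in all tissues would have a larger SD over tissues and be less likely to be chosen. Low counts among the 200 genes can thus follow in part from the rule. In liver (3 females, 3 males) 0 of the 200 genes passed edgeR's quasi-likelihood test, where 1.27% of all 17547 genes tested passed. At an unadjusted p under 0.05 there were 32 of the 200 (16%), beside the 18.3% of all genes and the 18.7% of the other genes above the floor. DESeq2 called 5 (8.74% of all genes), and so did edgeR with all 16 libraries in 1 fit (3.37%). A fold change over 1.5 between the sexes was found for 5 of the 200 (2.50%), against 23.1% of all genes and 8.43% of the other genes above the floor. In 61 of the 200 genes (30.5%) the livers of females and males did not overlap, against 26.6% of the others. Females were above all males in 33 (11.2% of the others) and below them in 28 (15.4%).

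The gene with the smallest p was Monax4B031099. Its normalised counts were 1542, 1506 and 1285 in the livers of the females F6849, F9150 and F6852 and 2270, 2472 and 2503 in those of the males M4046, M4075 and M4091. No female liver reached the lowest male liver, and the log2 fold change, females over males, was -0.71 (standard error 0.14, adjusted p = 0.0659, edgeR). It passed with DESeq2 (adjusted p = 0.000528) and with all 16 libraries in 1 edgeR fit (adjusted p = 0.0214). In kidney, where females had 2057 and 2035 and males 1841, 1919 and 2408, the sexes overlapped. In spleen females had 1339 and 1304 and males 1959, 1522 and 1345, so that females were below all males there too, by a small margin. The largest difference was that of Monax4B001313, named after its values were seen, with 2022, 2911 and 2468 in the livers of those females and 1499, 1090 and 1338 in those of the males. The log2 fold change was 0.95 (standard error 0.19, adjusted p = 0.0710, edgeR). The livers of the sexes did not overlap for this gene either. Females were above all males in kidney as well, with 1655 and 2062 against 1615, 1475 and 1639, and in spleen, with 1903 and 1859 against 1726, 1489 and 1277. Both genes were near the end of the order of stability, at numbers 186 and 188.

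In kidney and spleen (2 females and 3 males each) edgeR called 0 of the 200 genes and 0% of all 20520 and 19735 genes tested. At an unadjusted p under 0.05 there were 5 of the 200 in kidney (2.50%, against 8.01% of all genes and 6.13% of the other genes above the floor) and 9 in spleen (4.50%, against 21.0% of all genes and 20.4% of the other genes above the floor). DESeq2 called 0 in kidney (2.57% of all genes) and 1 in spleen (12.5%), and edgeR with all 16 libraries in 1 fit called 0 (0.0180%) and 1 (3.69%). Females and males did not overlap in 48 of the 200 genes in kidney (24.5% of the others did not), 41 of them higher in females (15.1%) and 7 lower (9.39%). In spleen 68 of the 200 genes did not overlap (43.7% of the others), 12 higher in females (21.0%) and 56 lower (22.7%). As a set the 200 genes lay lower in the female spleens on this scale. Their median deviation from the mean of the tissues was 0.04 and 0.01 (log2) in females and 0.06, 0.09 and 0.19 in males. With the TMM factors of the test the median log2 fold change of females over males in spleen was -0.04. A fold change over 1.5 was found for 0 of the 200 in kidney (21.7% of all genes, 2.27% of the other genes above the floor) and 5 in spleen (33.4% and 11.2%). In kidney 153 of the 200 genes had a positive log2 fold change of females over males, with a median of 0.10 against a median of 0.00 over all genes tested. Without the kidney of F9150, where the 200 genes held 1.6% of the counts against 1.44% to 1.47% in the other kidneys, that median was 0.02. Both female kidneys were run in lane 3 and the male kidneys in lanes 5, 1 and 6. Livers of females were run in lanes 1 and 2 and those of males in lanes 4, 5 and 8. Spleens of females were run in lanes 4 and 5 and those of males in lanes 2, 6 and 8. Sex and lane therefore cannot be told apart within kidney, liver or spleen. Monax4B036720 had the smallest p in kidney, with 3910 and 4489 in the females F6849 and F9150 and 3078, 3235 and 3168 in the males, and did not pass (log2 fold change 0.43, adjusted p = 0.541, edgeR). Monax4B003556 had the smallest p in spleen, with 1531 and 1769 in females and 1193, 1073 and 1072 in males (log2 fold change 0.62, adjusted p = 0.128, edgeR). It passed with DESeq2 (adjusted p = 0.0166) and with all 16 libraries in 1 edgeR fit (adjusted p = 0.0405).

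An interaction of sex with tissue was tested over the 16 libraries of liver, kidney and spleen. Of the 200 genes 0 passed edgeR's quasi-likelihood test, where 1.06% of all 22179 genes did. At an unadjusted p under 0.05 there were 19 of the 200 (9.50%), against 18.0% of all genes and 23.8% of the other genes above the floor, and DESeq2 called 12 (10.3% of all genes). A sex difference in a single tissue moves the mean of that tissue, so such a gene was less likely to be chosen. Low counts in this test can thus also follow in part from the rule. The smallest p was that of Monax4B019923 (adjusted p = 0.0786, edgeR; 0.000364 with DESeq2), with 3761, 3843 and 3737 in female livers and 2419, 2637 and 2763 in male livers. In spleen the order was less clear, with 2843 and 2964 in females and 2949, 3151 and 3663 in males. In kidney females had 2568 and 2787 and males 2418, 2555 and 2567, so that females were above all males by a small margin.

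The 200 genes had at least 478 counts in any library, and a median of 1446 in the pancreas library to 6686 in the deepest spleen library. With 2 or 3 animals of a sex, a p that misses the threshold does not show that females and males had the same level.

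By mean normalised count, 4 groups of equal size were made of the genes above the floor. Of the 200 genes, 90 were in the lowest group (1272 to 3072), 49 and 44 in the middle groups and 17 in the highest (8720 and above). Read counts are not corrected for gene length, so this ranks the depth behind a value and not the expression of a gene. With a floor of 2000 in place of 1000, 124 of the 200 genes passed it. Their SDs were unchanged, so these were bound to be chosen again.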

How the data were processed

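The deposited values are read counts per gene without normalization. To make them, the authors aligned each library to their woodchuck assembly (gem-tools) and counted on the genes of Monax4B (gemtools). Per the submitters' processing notes CASAVA 1.8.4 and FastQC 0.11.5 were also used. Between 78.0% and 87.0% of the members' counts in a library are even, as if both mates of a fragment had been counted. Every column belongs to a sample. Members and comparisons were chosen with earlier results of these data known. The rule was applied in Python 3.11.15, and tests were made in R 4.3.3 with edgeR 4.0.16 (limma 3.58.1): filterByExpr, TMM factors and the robust quasi-likelihood test, adjusted over all genes tested by the Benjamini-Hochberg method. DESeq2 1.42.0 was an alternative. Tissues were compared without a block. Libraries of an animal come from 1 individual: after removal of tissue means, its 15 pairs correlated at 0.122 to 0.312 over all genes tested. Named genes are at most 2 per criterion and direction (smallest and largest SDs, the limit, tissue deviations and fold changes, smallest p in the other tests). Alternatives were RLE factors, library sizes, scaling to the members, no filter, DESeq2, the animal as a block, other floors, spreads and tissues, halved counts, 1 fit for all sexes and tissues, and libraries left out. The lane as a block and the reading of left-out tissues were added after seeing the data. The method was tested on simulated data. Changes of 1.5-fold were rarely or never recovered there in the tests of sex, sex by tissue and animal. Figures were drawn with matplotlib 3.10.9.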

Additional observations from a re-analysis of the deposited data

Results flagged for a closer look

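Among 63 sets of 5 or 6 libraries, 6 had an extreme library whose distance to its neighbour was a large part of the range (Dixon's criterion at the 95% level). The sets were the 18 named members and 3 measures over all 200 genes, each in liver, kidney and spleen, and they share libraries. Many of the named members were picked for extreme values in these same libraries. The usual rate of about 1 in 20 by chance therefore does not apply, and the flags are a description. The 200 genes held 0.585% of the counts of the liver of F9150, against 0.545% to 0.560% in the other livers, and 1.6% of those of the kidney of F9150, against 1.44% to 1.47% in the other kidneys. In spleen F9150 did not stand apart, at 1.65% among 1.53% to 1.83%. Monax4B042552 was at 6373 normalised counts in the liver of F9150, against 2368 to 3687 in the others. Monax4B036720 was at 4770 in the liver of M4046, against 3846 to 4125. Monax4B014413, the second most stable gene, was at 6921 in the kidney of M4046, against 7727 to 8011. Monax4B042683 was at 4996 in the kidney of M4075, against 2923 to 3437.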

How the results depend on the processing

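Which genes were chosen depended most on the scaling and on the tissues. Of the 200 genes, 180 were chosen again with TMM factors and 0 with library sizes alone, 171 with a floor of 500 and 124 with one of 2000, 168 by the range, 179 by the coefficient of variation, 179 with tissue medians and 118 by the SD over all 20 libraries. The number for the floor of 2000 is that of the members above it, which the rule was bound to keep. With liver, kidney and spleen alone 46 were chosen again. Leaving out a tissue gave 97 for liver, 108 for spleen, 127 for pancreas, 130 for heart, 139 for thymus, 155 for kidney and 159 for lung, with size factors computed anew. With each library or animal left out in turn the number was 95 to 195. The lowest values were 95 without F9150 and 111 without F6849, the animals that gave the tissues with a single library.

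The members called between liver and kidney were 67, and 52 to 68 with a library left out, 200 with library sizes alone and 28 with the lane as a block. For liver and spleen they were 67, 58 to 72 and 200 at those settings in that order, and 52 with the lane. For kidney and spleen they were 68, 51 to 72 and 62, and 36 with the lane. The animal as a replicate block gave 59, 66 and 65, and 0 for sex by tissue, and among the named genes changed no other call than that of Monax4B031099 between kidney and spleen (log2 fold change 0.43, adjusted p = 0.0335, edgeR). Monax4B040333 turned from positive to -0.99 against kidney and -0.93 against spleen with library sizes alone.

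For the tests that gave 0 members, every library left out in turn gave 0 (lowest and highest 0). DESeq2 gave 5 for sex in liver, none in kidney, 1 for sex in spleen, 12 for sex by tissue and 16 between animals. All 16 libraries in 1 fit gave 5 for liver and 1 for spleen, and scaling to the 200 genes gave 1 between animals (Monax4B042683, adjusted p = 0.0367, edgeR). With the lane as a block the test between animals gave 0 (Monax4B042683, adjusted p = 0.248, edgeR), and that of sex by tissue could not be fitted. The lane could not be a block within 1 tissue. The cause of these differences was not tested. The median SD between animals stayed at 0.15 to 0.17 in liver, 0.11 to 0.14 in kidney and 0.13 to 0.16 in spleen with a library left out. The values of the tissues with 1 library carry no replicate error.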
